A study of Mus musculus with 8 samples.

Results

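Homeostatic microglia and tissue macrophages keep a set of receptors and regulators switched on in undisturbed brain tissue, and 9 genes of this set are described here in the mouse pineal gland: P2ry12, Tmem119, Cx3cr1, Sall1, Csf1r, Gpr34, Aif1, Mrc1 and Cd163. They were taken by name from the 53710 rows of the deposited expression table, a rule that uses no measured value, although the set was proposed with earlier results of these data known. The study sequenced total RNA of whole pineal glands, depleted of ribosomal RNA, from 5xFAD mice and wild type mice, with 4 libraries in each group. The 5xFAD mice are a transgenic model of Alzheimer's disease and carry human APP with the Swedish, Florida and London mutations. Transgene expression is driven by the mouse Thy1 promoter, which is active mainly in neurons. Which cells of the gland express the 9 genes was not measured in these bulk libraries. These mice are on a C57BL/6 background and came from The Jackson Laboratory, whereas the wild type C57BL/6 mice came from another supplier, Koatech, so that genotype and supplier cannot be told apart. All mice were described as male and 5 months old, and glands were taken at Zeitgeber time 0.5, shortly after lights on. Each library is a pool of glands from 5 to 7 mice. The libraries keep the numbers of their labels, which are 1, 2, 3 and 21 for 5xFAD and 11, 21, 22 and 23 for wild type, and are written as 5xFAD-1 or WT-11.

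Microglia are the resident macrophages of the brain parenchyma, and their survival depends on signalling through the receptor encoded by Csf1r, which binds the ligands CSF1 and IL-34. In the resting state they sense nucleotides, lipids and the neuronal chemokine fractalkine through P2ry12, Gpr34 and Cx3cr1, and in mice the transcription factor Sall1 helps to hold this state. Mrc1 and Cd163 encode scavenger receptors of the macrophages that lie along vessels and in the meninges. The pineal gland sits outside the blood-brain barrier, is wrapped in meninges and lies against the skull, so a dissected gland can bring macrophages of several kinds with it. In bulk RNA, fewer cells of a type and less RNA per cell cannot be told apart.

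The promoter sequences of 4 of the genes show what members with different patterns across the libraries share and do not share upstream. They are the 250 bases before the RefSeq start on GRCm38.p6, 5′ to 3′ on the strand of the gene, and the capitals mark AGGAAGT, the core of sites bound by the macrophage factor PU.1, or its reverse complement ACTTCCT. P2ry12 (chr3:59262986-59263235, minus strand) and Mrc1 (chr2:14229164-14229413, plus strand) each hold 1 copy. Cd163 (chr6:124304401-124304650, plus strand), which varied with Mrc1, holds none. Sall1 varied against the other members except Cx3cr1. The most upstream of its 3 windows (chr8:89044163-89044412, minus strand), printed here, holds none, but another of them holds 1 copy.
P2ry12: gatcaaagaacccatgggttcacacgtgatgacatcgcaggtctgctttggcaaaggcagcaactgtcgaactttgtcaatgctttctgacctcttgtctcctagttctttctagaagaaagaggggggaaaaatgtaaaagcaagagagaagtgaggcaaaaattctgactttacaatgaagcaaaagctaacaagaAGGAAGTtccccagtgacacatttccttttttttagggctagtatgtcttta
Mrc1: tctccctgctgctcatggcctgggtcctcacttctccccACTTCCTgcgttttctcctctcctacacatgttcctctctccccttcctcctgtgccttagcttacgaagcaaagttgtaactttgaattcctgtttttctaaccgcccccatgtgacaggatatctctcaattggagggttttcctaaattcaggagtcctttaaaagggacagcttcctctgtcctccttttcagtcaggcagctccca
Cd163: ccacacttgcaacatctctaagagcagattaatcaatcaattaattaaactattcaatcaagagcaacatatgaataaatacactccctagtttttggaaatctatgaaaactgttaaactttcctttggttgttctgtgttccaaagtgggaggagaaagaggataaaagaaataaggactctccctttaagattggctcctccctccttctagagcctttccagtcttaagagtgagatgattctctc
Sall1: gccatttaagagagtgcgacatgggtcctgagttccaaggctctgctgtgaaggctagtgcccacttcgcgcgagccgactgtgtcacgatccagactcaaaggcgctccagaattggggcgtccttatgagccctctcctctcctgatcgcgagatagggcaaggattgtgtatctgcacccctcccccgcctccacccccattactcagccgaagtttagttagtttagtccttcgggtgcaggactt
The copy in P2ry12 begins 52 bases before the start, and that in Mrc1 begins 211 bases before it. The 6 members in the RefSeq table have 8 windows, and 3 of the 8 held the letters on either strand, the third being another window of Sall1. Over all 32851 windows the share was 7.69%. Cx3cr1 and Aif1 held none, and Tmem119, Gpr34 and Csf1r have no entry in that table. A match of letters is a description and was not tested for binding.

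All 9 genes were detected in every library, at 1.13 to 55.4 FPKM, the fragment count of a gene scaled to its transcript length and to the depth of the library. All 9 also passed the filter for testing, an average of 1 FPKM or more across all 8. The pineal identity of the tissue was plain: Tph1, the gene of tryptophan hydroxylase in the melatonin pathway, lay at 737 to 1900 FPKM in 5xFAD libraries and 613 to 1236 FPKM in WT libraries. Spacing of the low values gave 25.2 to 36.0 fragments per 1 FPKM on a transcript of 2 kilobases in 5xFAD libraries and 22.3 to 27.4 in WT libraries. One library stood apart from its label. WT-22 held the X-inactivation transcript Xist at 13.3 FPKM, against at most 0.0404 FPKM in the other 7, although the mice were described as male. The Y-linked gene Ddx3y was lowest in WT-22, at 32.0 FPKM, against 38.7 to 59.4 FPKM in the other 7. The sex of the mice in that pool was not tested. The brown fat gene Ucp1 was at 516 FPKM in 5xFAD-2 and at most 0.193 FPKM elsewhere, and choroid plexus markers were low in 5xFAD-1, where Folr1 was at 13.6 FPKM against 87.0 to 213 FPKM in the others.

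None of the 9 genes differed between 5xFAD and wild type pineal glands after correction over the 13094 protein-coding genes tested (limma, Benjamini-Hochberg; adjusted p 0.604 to 0.884). The background was low as well, with 5 of all genes tested called, or 0.0382%. Aif1, lower in 5xFAD, was the 1 member with an unadjusted p under 0.05, against 7.95% of all genes (3.35% lower and 4.6% higher in 5xFAD). The fold change was below 0 in 8 of the 9 genes and above 0 in Sall1, and 51.3% of all genes lay below 0. The median log2 fold change of the 9 genes was -0.46, beside -0.01 over all genes tested. It was -0.14 without 5xFAD-21, -0.29 without WT-11 and -0.71 without 5xFAD-1. No member had every 5xFAD library below every WT library, a pattern seen in 2.23% of genes, and none had every 5xFAD library above, seen in 2.11%. The 95% interval of the log2 fold change spanned 0 for 8 of the 9, with Aif1 the exception. Without WT-22 the log2 fold change was -0.40 for P2ry12, -0.52 for Gpr34, -0.38 for Cx3cr1, -0.50 for Csf1r, -0.80 for Aif1 and 0.50 for Sall1, and the values for Tmem119, Mrc1 and Cd163 are given with those genes. None of the 9 passed the test in that fit (limma adjusted p 0.19 to 0.533).

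**Figure D1:**
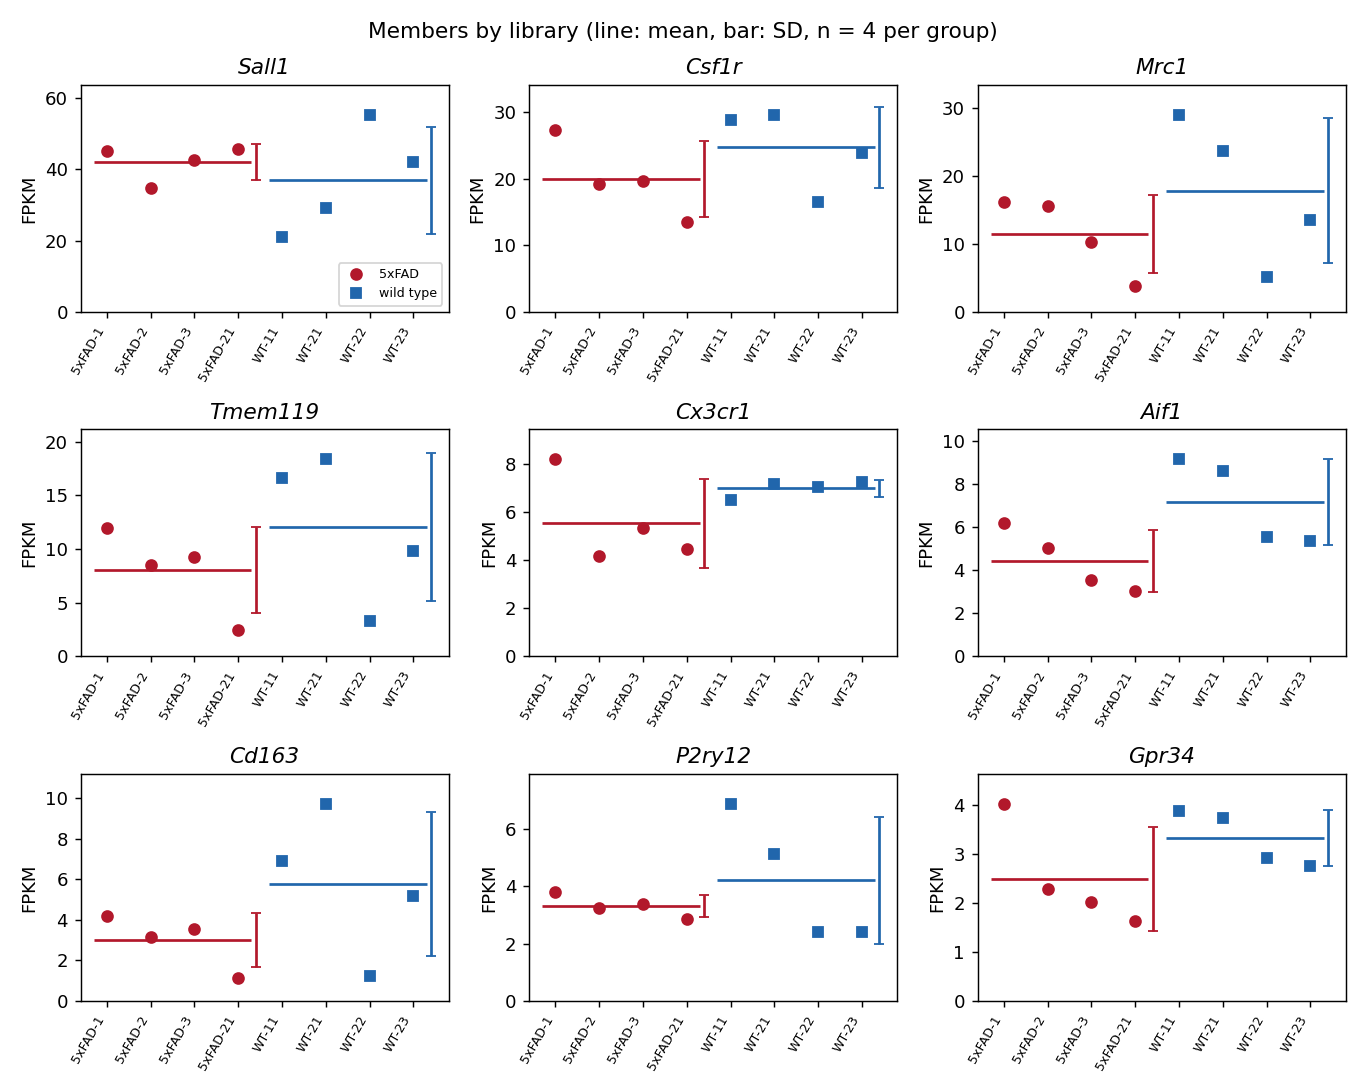
FPKM of the 9 genes (vertical axes, each from 0) in the 4 5xFAD libraries (red circles) and the 4 wild type libraries (blue squares), with a line for each group's mean and a bar for its SD. The groups overlap in every panel, 5xFAD-21 and WT-22 are the lowest pair for Tmem119, Csf1r, Mrc1 and Cd163, and Sall1 is highest in WT-22 at 55.4 FPKM.

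Among the receptors, P2ry12 (chr3:59216272-59262871, minus strand, up to 4 exons) encodes the ADP receptor that guides microglial processes to injured cells. Its level was 3.81 FPKM in 5xFAD-1, 3.24 in 5xFAD-2, 3.37 in 5xFAD-3 and 2.87 in 5xFAD-21, and 6.89 FPKM in WT-11, 5.13 in WT-21, 2.41 in WT-22 and 2.395 in WT-23. The 5xFAD libraries lay close together and inside the range of the WT libraries, which split into a high and a low pair. The means were 3.32 ± 0.386 FPKM in 5xFAD and 4.21 ± 2.20 FPKM in WT (SD, n = 4 each), with a log2 fold change of -0.19 (SE 0.34, limma adjusted p = 0.884). Without WT-11 the log2 fold change was 0.09, so its sign rested on that library. The gene lies within Med12l, on the other strand, with 9 exon bases in common.

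Gpr34 (chrX:13632089-13640858, plus strand, up to 4 exons) encodes a receptor for lysophosphatidylserine and lies within the gene Cask, on the other strand, sharing no exon base with it. It had the lowest mean of the 9 genes. Gpr34 stood at 4.03 FPKM in 5xFAD-1, 2.30 in 5xFAD-2, 2.02 in 5xFAD-3 and 1.63 in 5xFAD-21, against 3.87 FPKM in WT-11, 3.75 in WT-21, 2.92 in WT-22 and 2.75 in WT-23. All 4 WT libraries lay above 5xFAD-2, 5xFAD-3 and 5xFAD-21, while 5xFAD-1 was the highest of all. The log2 fold change was -0.46 (SE 0.28, limma adjusted p = 0.691).

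Cx3cr1 (chr9:119901616-120069879, minus strand, up to 3 exons) encodes the receptor for fractalkine. Its libraries were at 8.22 FPKM in 5xFAD-1, 4.18 in 5xFAD-2, 5.33 in 5xFAD-3 and 4.45 in 5xFAD-21, and at 6.50 FPKM in WT-11, 7.19 in WT-21, 7.03 in WT-22 and 7.26 in WT-23. The WT values were the tightest of any member, with an SD of 0.344 FPKM against 1.85 FPKM in 5xFAD. As with Gpr34, 5xFAD-1 lay above every WT library and the other 3 5xFAD libraries lay below every WT library. The log2 fold change of Cx3cr1 was -0.38 (SE 0.21, limma adjusted p = 0.654). Without 5xFAD-1, all 5xFAD values lay below all WT values for Cx3cr1, Gpr34 and Aif1, or 3 of the 9 genes, against 3.47% of all genes tested. This pattern was singled out after the values were seen. In that fit the log2 fold changes were -0.58 for Cx3cr1, -0.71 for Gpr34 and -0.87 for Aif1, and none passed the correction (limma adjusted p = 0.608 for Cx3cr1 and 0.707 for both Gpr34 and Aif1). The gene model of Cx3cr1 stretches over several other genes but shares exon bases only with the antisense transcript Gm33858 (78 bases, or 1.73% of its exon bases), which was at 0.0433 to 0.132 FPKM in 5xFAD libraries and at most 0.44 FPKM in WT libraries.

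Csf1r, on chromosome 18, encodes the CSF1 and IL-34 receptor found on microglia and other macrophages alike. It was at 27.4 FPKM in 5xFAD-1, 19.2 in 5xFAD-2, 19.7 in 5xFAD-3 and 13.5 in 5xFAD-21, and at 28.8 FPKM in WT-11, 29.6 in WT-21, 16.5 in WT-22 and 23.9 in WT-23. The lowest library of each group, 5xFAD-21 and WT-22, were also the lowest of all 8. The means of 20.0 ± 5.68 FPKM in 5xFAD and 24.7 ± 6.05 FPKM in WT gave a log2 fold change of -0.31 (SE 0.25, limma adjusted p = 0.746). Its exons share 15.1% of their bases with Hmgxb3 on the other strand, which was at 9.05 to 11.01 FPKM in 5xFAD and 8.79 to 10.99 FPKM in WT. Whether fragments were counted by strand is not given in the sources used here, so reads over those bases cannot be assigned to 1 of the 2 genes.

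Aif1 (chr17:35170991-35176068, minus strand, up to 8 exons) encodes Iba1, the actin-binding protein by which microglia are usually stained. Aif1 stood at 6.18 FPKM in 5xFAD-1, 5.03 in 5xFAD-2, 3.52 in 5xFAD-3 and 3.01 in 5xFAD-21, against 9.14 FPKM in WT-11, 8.61 in WT-21, 5.53 in WT-22 and 5.34 in WT-23. Only 5xFAD-1 reached into the WT range, above WT-22 and WT-23. The means were 4.43 ± 1.44 FPKM in 5xFAD and 7.16 ± 2.00 FPKM in WT (SD, n = 4 each). The log2 fold change was -0.69 (SE 0.27, 95% interval -1.31 to -0.07), with an unadjusted p of 0.0328 and an adjusted p of 0.604 by limma. An exact permutation test over the 70 ways to split the 8 libraries gave p = 0.114, two-sided. Aif1 is short, and its values rested on an estimated 33.2 to 104 fragments, a counting error of 9.8 to 17.3% beside a spread between libraries of 32.6% in 5xFAD and 27.9% in WT.

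Tmem119 (chr5:113793729-113800516, minus strand, up to 3 exons) encodes a membrane protein used to tell microglia from blood-derived macrophages, and in mice it is also a gene of osteoblasts. It was at 11.9 FPKM in 5xFAD-1, 8.50 in 5xFAD-2, 9.26 in 5xFAD-3 and 2.43 in 5xFAD-21, and at 16.6 FPKM in WT-11, 18.4 in WT-21, 3.34 in WT-22 and 9.81 in WT-23. The library from each group with the lowest value, 5xFAD-21 and WT-22, lay far under the other 6. The spread within groups was larger than the difference between the means, 8.03 ± 4.02 FPKM in 5xFAD and 12.04 ± 6.88 FPKM in WT. The log2 fold change was -0.53 (SE 0.63, limma adjusted p = 0.82), with a 95% interval of -1.95 to 0.90.

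The scavenger receptor genes of border macrophages followed the same libraries. Mrc1 (chr2:14229392-14332057, plus strand, up to 30 exons), which encodes the mannose receptor CD206, was at 16.1 FPKM in 5xFAD-1, 15.6 in 5xFAD-2, 10.3 in 5xFAD-3 and 3.81 in 5xFAD-21, and at 29.1 FPKM in WT-11, 23.7 in WT-21, 5.10 in WT-22 and 13.6 in WT-23. Cd163 (chr6:124304656-124330527, plus strand, up to 17 exons), which encodes the receptor for haemoglobin bound to haptoglobin, was at 4.17 FPKM in 5xFAD-1, 3.16 in 5xFAD-2, 3.55 in 5xFAD-3 and 1.13 in 5xFAD-21, and at 6.88 FPKM in WT-11, 9.73 in WT-21, 1.225 in WT-22 and 5.15 in WT-23. In both genes 5xFAD-21 and WT-22 were lowest, WT-11 and WT-21 were highest, and the groups overlapped. Their log2 fold changes were -0.56 for Mrc1 (SE 0.61, limma adjusted p = 0.807) and -0.73 for Cd163 (SE 0.64, limma adjusted p = 0.774). Without WT-22 they were -1.07 for Mrc1 and -1.34 for Cd163, and that of Tmem119 was -1.05, values that still missed the threshold (limma adjusted p = 0.19 for Cd163, the lowest of the 3). Without 5xFAD-21 they were -0.11 for Mrc1, -0.34 for Cd163 and -0.03 for Tmem119, and leaving out other single libraries moved them as well: Mrc1 was at -0.24 without WT-11, and Tmem119 was at -0.24 and Cd163 at -0.37 without WT-21.

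Sall1 (chr8:89027235-89044162, minus strand, 4 exons) encodes the zinc finger transcription factor that in the mouse brain is a hallmark of microglia. It had the highest mean of the 9 genes over the 8 libraries, though it lay below Csf1r in WT-11 and WT-21 and below Mrc1 in WT-11. Its level was 45.2 FPKM in 5xFAD-1, 34.9 in 5xFAD-2, 42.5 in 5xFAD-3 and 45.7 in 5xFAD-21, and 21.1 FPKM in WT-11, 29.1 in WT-21, 55.4 in WT-22 and 42.1 in WT-23. It was highest in WT-22 and lowest in WT-11 and WT-21, the reverse of most other members. The means of 42.1 ± 5.01 FPKM in 5xFAD and 36.9 ± 15.0 FPKM in WT gave a log2 fold change of 0.27 (SE 0.27, limma adjusted p = 0.794), the 1 positive value among the members. In its course over the libraries, Sall1 did not go with the myeloid genes it is listed with.

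**Figure D2:**
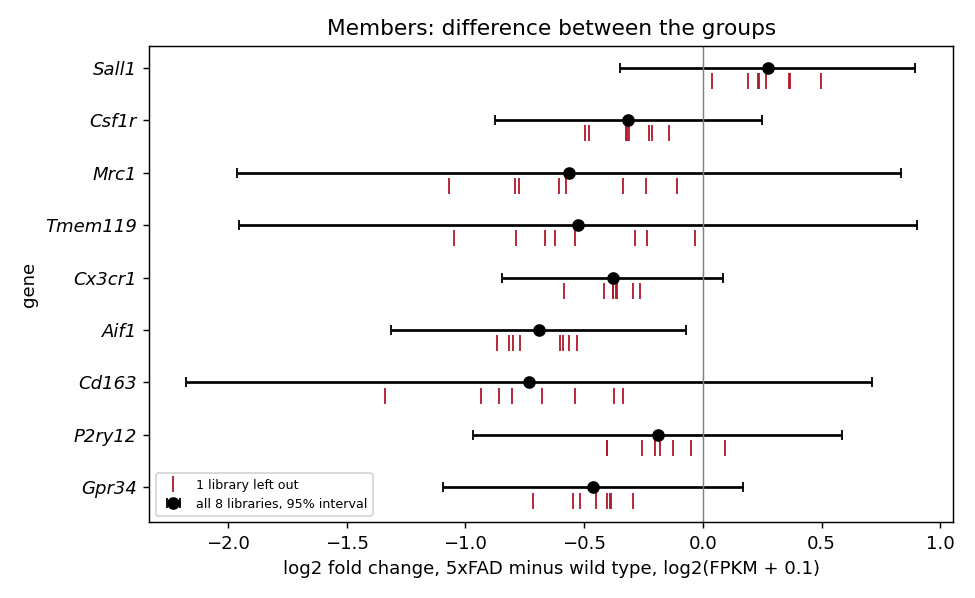
Log2 fold change of each gene, 5xFAD minus wild type, on the log2(FPKM + 0.1) scale (black points, 95% interval from limma), with red ticks for the value when 1 of the 8 libraries is left out. Every interval but that of Aif1 spans 0, and the widest ranges of the ticks belong to Cd163, Tmem119 and Mrc1.

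FPKM is scaled to transcript length, so the levels of the genes can be set side by side. Over all 8 libraries the mean level ran from Sall1 (39.5 ± 10.7 FPKM) through Csf1r (22.3 ± 5.997), Mrc1 (14.7 ± 8.64), Tmem119 (10.04 ± 5.64), Cx3cr1 (6.27 ± 1.45), Aif1 (5.79 ± 2.17), Cd163 (4.37 ± 2.88) and P2ry12 (3.76 ± 1.54) to Gpr34 (2.91 ± 0.904, SD, n = 8). None of the 8 neighbouring pairs in that order passed the threshold after adjustment (exact sign-flip permutation tests over libraries, two-sided, adjusted p 0.0625 to 0.93), but the pairs were ranked on the same libraries and a single pair at the smallest p could not have passed. The clearest was Mrc1 over Tmem119, which held in 8 of 8 libraries at 1.46-fold, with an exact p of 0.00781, the smallest that 8 libraries allow. Mrc1, Tmem119 and Cd163 also varied most: their highest library was 7.63, 7.58 and 8.61 times the lowest. For all genes tested with values above 0 the median of this ratio was 1.73, and Cx3cr1, the steadiest member, had 1.96.

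The level of Mrc1 relative to Cx3cr1 differed more between libraries of 1 group than between the group means. The ratio of Mrc1 to Cx3cr1 was 1.96 in 5xFAD-1, 3.73 in 5xFAD-2, 1.93 in 5xFAD-3 and 0.856 in 5xFAD-21, and 4.48 in WT-11, 3.29 in WT-21, 0.725 in WT-22 and 1.87 in WT-23. It averaged 2.12 ± 1.19 in 5xFAD and 2.59 ± 1.64 in WT (SD, n = 4 each), and was below 1 in 5xFAD-21 and WT-22 alone. Relative to Tmem119, by contrast, Mrc1 was steady, with an SD of 0.239 for the log2 ratio over the 8 libraries. The ratio of Sall1 to Csf1r was 1.65, 1.82, 2.16 and 3.38 in the 5xFAD libraries in the same order, and 0.732, 0.98, 3.36 and 1.76 in the WT libraries, so it was highest where the Mrc1 ratio was lowest. Per unit of Csf1r, the level of Aif1 averaged 0.222 ± 0.0342 in 5xFAD and 0.292 ± 0.0491 in WT.

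Across the 8 libraries, 7 of the members varied together. Leaving aside Sall1 and Cx3cr1, which were set apart after their values were seen, the 21 pairs had Pearson correlations of log2(FPKM + 0.1) between 0.58 and 0.98, with a median of 0.76. Without 5xFAD-21 and WT-22 the range was 0.62 to 0.97 and the median 0.84. The closest pairs were Tmem119 with Cd163 (0.98), Mrc1 (0.97) and Csf1r (0.95), then the pairs among Cd163, Mrc1 and Csf1r (0.93 to 0.94), and Aif1 with Gpr34 (0.93). Cx3cr1 was looser, with a median of 0.44 against those 7 genes and its highest value with Gpr34 (0.82). Sall1 ran the other way, with values down to -0.89 (P2ry12), a median of -0.69, and 7 of 8 below 0. These correlations are over libraries that differ in depth and in the share of unread bases, and they are given as description.

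**Figure D3:**
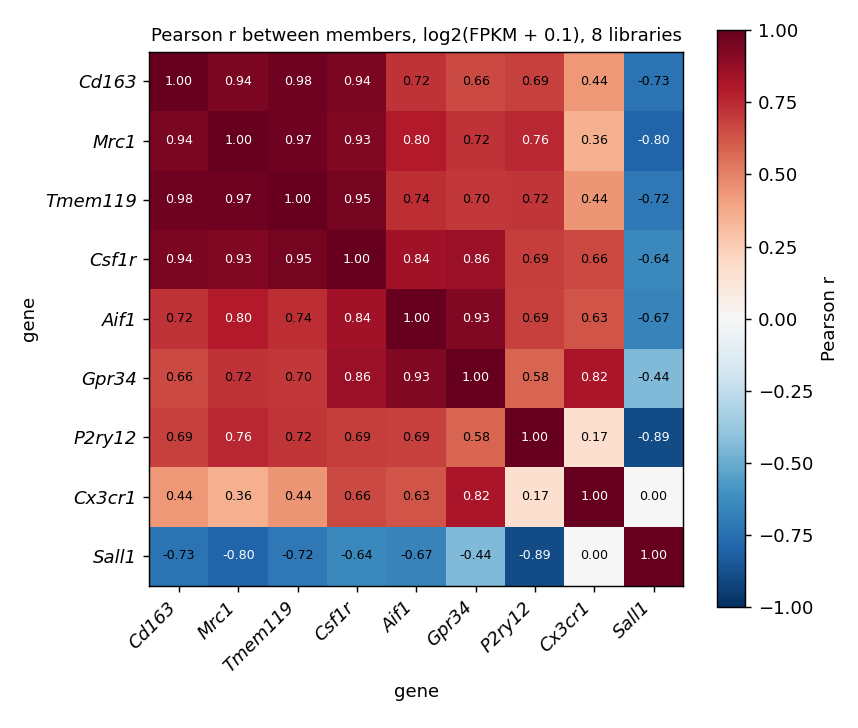
Pearson correlation of log2(FPKM + 0.1) between each pair of the 9 genes over 8 libraries, as colour and number. Cd163, Mrc1, Tmem119 and Csf1r form a block at 0.93 to 0.98, Cx3cr1 is weaker, and the row of Sall1 is negative except against Cx3cr1.

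The same few libraries held the extremes of most members. 5xFAD-21 and WT-22 were the lowest pair in 4 of the 9 genes (Tmem119, Csf1r, Mrc1 and Cd163), against 11.7% of all genes tested. WT-11 and WT-21 were the highest pair in 6 (P2ry12, Tmem119, Csf1r, Aif1, Mrc1 and Cd163), against 14.4%. Both rank patterns were picked after the values were seen. By sequencing quality the libraries fall into a class with few unread bases (the 5xFAD libraries 1, 2 and 3 with WT-11) and a class with many (5xFAD-21 with the WT libraries 21, 22 and 23). Within each class 8 of 9 members were lower in 5xFAD, with a median difference of -0.76 on the log2 scale in the first and -0.89 in the second, but each class holds a single library of one group and allows no test. That library was WT-11 in the first class and 5xFAD-21 in the second, each from 1 of the extreme pairs above. The differences within classes therefore partly restate those ranks, and the share over all genes was not computed. With the class as a term in the fit, the log2 fold changes were -1.34 for Mrc1, -1.32 for Cd163, -1.26 for Tmem119 and -0.99 for Aif1, and none passed the threshold (limma adjusted p = 0.382 for Aif1).

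The genes most like each member over the 8 libraries differed by member. Tmem119 was followed most closely by Htra3 (r = 0.994), Stab1 (0.993) and Itm2a (0.992), Mrc1 by Thbs2 (0.995), Chp2 (0.992) and Gdf10 (0.990), Cd163 by Slc52a3 (0.996), Pdgfrl (0.992) and Itgbl1 (0.990), and Csf1r by Emilin1 (0.994), Rab3il1 (0.985) and Sulf2 (0.981). For these 4 members, 314 to 530 genes had a correlation over 0.9, so that close company was common. Stab1 encodes a scavenger receptor of macrophages and vessels, whereas Thbs2 and Emilin1 encode matrix proteins. Fewer genes went with P2ry12 (74 over 0.9, led by Tmsb10, Plcb1 and Atxn1), Aif1 (44, led by Ifitm10, Dap and Dchs1), Cx3cr1 (15, with Ccdc163 second at 0.945 between a pair of genes known by clone names) and Gpr34 (13, led by Lrrc17, Tmem159 and Dap). Sall1 went with 332, led by Unc80 (0.997), Trp53bp2 (0.986) and Fan1 (0.986).

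Most genes of the wider myeloid lists also lay below 0, and none of them passed the test (limma, adjusted over all genes tested). Among all genes tested, 51.3% lay below 0 and 3.35% were lower in 5xFAD at an unadjusted p under 0.05. The genes of a list were measured in the same libraries and are not separate observations. Among other microglia genes, 11 of the 14 in the table were tested and 10 lay below 0, with a median log2 fold change of -0.46. Their most abundant was Tyrobp, the signalling adaptor of TREM2, at -0.53. P2ry6, a UDP receptor of phagocytosis, had a log2 fold change of -0.72 and was the only one there under an unadjusted 0.05 (unadjusted p = 0.0404, limma adjusted p = 0.607). Of 11 other border macrophage genes, 8 lay below 0 (median -0.47), among them Stab1 at -0.47 and Maf at -0.37, while Pf4 was at -0.08. Of 12 genes common to macrophages, 11 lay below 0 (median -0.33), with Lyz2, which encodes lysozyme, at -0.31, Ctss at -0.09, Fcer1g at -0.67, and Ly86, whose product pairs with the Toll-like receptor RP105, at -0.67 (unadjusted p = 0.0393, limma). Of 8 myeloid transcription factors, 7 lay below 0 (median -0.37), with Irf8, which is needed for microglia to form normally, at -0.75 (unadjusted p = 0.0384, limma), Spi1, the gene of PU.1, at -0.40, Runx1 at -0.15, Smad3 at -0.14 and Mef2c at -0.33.

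The ligands of these receptors were measured in the same libraries. Of 9 ligands, receptors and partners that act on the members or maintain microglia, 5 lay below 0 (median -0.09), and none had an unadjusted p under 0.05. Il34, a ligand of the Csf1r product, was at 5.18 FPKM in 5xFAD-1, 4.09 in 5xFAD-2, 6.75 in 5xFAD-3 and 4.46 in 5xFAD-21, and at 6.19 FPKM in WT-11, 4.93 in WT-21, 4.21 in WT-22 and 3.80 in WT-23, with a log2 fold change of 0.09. Csf1, the other ligand, was at -0.19. Cx3cl1, the gene of fractalkine, was at 10.3, 11.1, 10.9 and 9.39 FPKM in the 5xFAD libraries in that order and 10.2, 9.97, 6.22 and 7.47 FPKM in the WT libraries, a log2 fold change of 0.32 (limma adjusted p = 0.653), while its receptor gene Cx3cr1 was at -0.38. The receptors for TGF-beta, a signal that keeps microglia in their resting state, were at -0.20 (Tgfbr1) and -0.09 (Tgfbr2), and Tgfb2 was at -0.24.

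**Figure D4:**
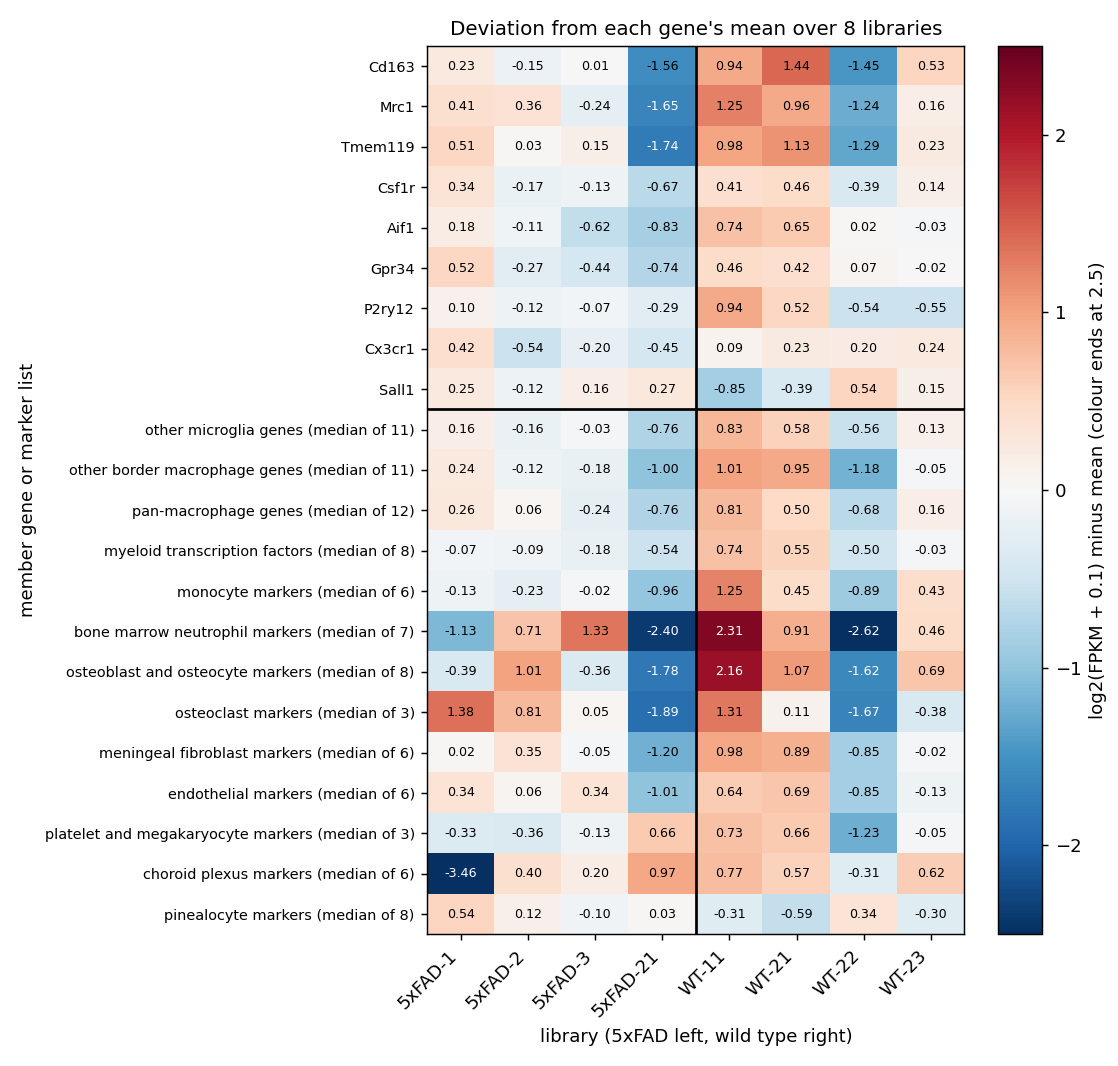
Deviation of each gene (upper rows), or the median deviation of each marker list (lower rows), from its mean over the 8 libraries on the log2(FPKM + 0.1) scale, 5xFAD libraries left and wild type libraries right. Cd163, Mrc1 and Tmem119 share the low values of 5xFAD-21 and WT-22 with every list shown except platelet, choroid plexus and pinealocyte markers. The lists that share them include other microglia genes, macrophages, monocytes, endothelium, meningeal fibroblasts, bone and bone marrow neutrophils. Choroid plexus is lowest in 5xFAD-1, at -3.46.

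Markers of other tissues moved over the same libraries. The 8 osteoblast and osteocyte markers, of which 7 lay below 0 between the groups (median -1.10), had median deviations of -0.39 on the log2 scale in 5xFAD-1, 1.02 in 5xFAD-2, -0.36 in 5xFAD-3 and -1.78 in 5xFAD-21, and 2.16 in WT-11, 1.07 in WT-21, -1.62 in WT-22 and 0.69 in WT-23. Their summed level was 21.7 to 83.0 FPKM in 5xFAD and 32.1 to 187 FPKM in WT, and 6 of the 8 had their lowest pair in 5xFAD-21 and WT-22. Bglap, the gene of osteocalcin, was above 0 in every library, at 0.285 to 14.9 FPKM in 5xFAD and 1.72 to 34.7 FPKM in WT. Bone marrow neutrophil markers lay below 0 in 7 of 7 tested genes (median -0.76), all 7 with their lowest pair in 5xFAD-21 and WT-22, and summed to 23.5 to 255 FPKM in 5xFAD and 20.7 to 458 FPKM in WT. That lowest pair was not particular to bone and marrow. It was seen in 10 of 12 genes common to macrophages, 8 of 11 other border macrophage genes and 5 of 11 other microglia genes. Over all genes tested the share was 11.7%, and 51.3% of them lay below 0 between the groups. The part of bone and marrow cells in the values of Tmem119, Mrc1, Cd163 and Csf1r was not tested.

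Monocyte markers lay below 0 in 6 of 6 genes (median -0.85), beside 51.3% of all genes tested. They summed to 48.1 to 117 FPKM in 5xFAD and 72.5 to 140 FPKM in WT. Vcan, which encodes the matrix proteoglycan versican, was at 3.04 FPKM in 5xFAD-1, 2.60 in 5xFAD-2, 2.57 in 5xFAD-3 and 2.17 in 5xFAD-21, and at 7.75 FPKM in WT-11, 4.98 in WT-21, 4.46 in WT-22 and 4.98 in WT-23. Its groups did not overlap, at a log2 fold change of -1.04 (unadjusted p = 6.4e-04, limma adjusted p = 0.347). Every 5xFAD library was below every WT library in 2.23% of all genes tested, and Vcan was named here for its unadjusted p. Osteoclasts, the macrophages of bone, gave 3 tested markers of 8, at a median of 0.41, with Ctsk at -0.57, Acp5 at 0.62 and Mmp9 at 0.41, a summed level of 6.45 to 48.6 FPKM in 5xFAD and 7.30 to 55.6 FPKM in WT, and 2 of the list at 0 in at least 1 library.

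Stromal lists had a similar order of libraries. Endothelial markers lay below 0 in 4 of 6 genes (median -0.30, summed level 31.9 to 79.8 FPKM in 5xFAD and 38.8 to 108 FPKM in WT) and all 6 had their lowest pair in 5xFAD-21 and WT-22. Meningeal fibroblast markers lay below 0 in 5 of 6 genes (median -0.34, summed level 329 to 979 FPKM in 5xFAD and 390 to 2949 FPKM in WT), and Igf2 among them was at -0.90 (unadjusted p = 0.0401, limma). Much of that sum was Col1a1, at 35.4 to 387 FPKM in 5xFAD and 81.0 to 1893 FPKM in WT (log2 fold change -2.18, limma adjusted p = 0.636). The remaining genes were closer together, with Lum at -0.43, Ogn at -0.25, Dcn at -0.08 and Slc6a13 at 0.45. Pinealocyte markers went the other way, above 0 in 6 of 8 genes (median 0.52, summed level 1928 to 3171 FPKM in 5xFAD and 1194 to 2741 FPKM in WT). Of these, 3 had an unadjusted p under 0.05 by limma: Gngt1 at a log2 fold change of 1.16 (unadjusted p = 0.0053), Sag at 0.89 (unadjusted p = 0.0454) and Neurod1 at 0.59 (unadjusted p = 0.0454), none passing the correction. Among all genes tested, 4.6% were higher and 3.35% lower in 5xFAD at that level, and 51.3% lay below 0. Choroid plexus markers lay below 0 in 6 of 6 genes (median -0.73), and 1 of them, Ttr, passed the test, with 0 listed for each 5xFAD library and values of 9440 to 19630 FPKM in WT. In the other 5 genes 5xFAD-1 was the lowest library, and the median deviation of the list was -3.46 in 5xFAD-1 but 0.40 in 5xFAD-2, 0.20 in 5xFAD-3 and 0.97 in 5xFAD-21. Folr1, for example, was at 149, 122 and 213 FPKM in 5xFAD-2, 5xFAD-3 and 5xFAD-21, beside 87.0 to 163 FPKM in WT. The listed 0 of Ttr in every 5xFAD library thus stood apart from its list, and its origin was not tested. When a value above 0 was required in every library, 0 genes were called. The part of these cell types in the values of the members was not tested.

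The Pearson correlation of a member with the median deviation of a list was high for several lists at once, over 8 libraries and as description. With the other microglia genes it was 0.95 for Tmem119, Mrc1, Cd163 and Csf1r. For the rest it was 0.82 for P2ry12 and Aif1, 0.75 for Gpr34, 0.48 for Cx3cr1 and -0.83 for Sall1. With the other border macrophage genes it was 0.96 for Mrc1, Tmem119 and Cd163 and 0.93 for Csf1r, with the pan-macrophage genes 0.98 for Mrc1, and with the endothelial list 0.97 for Tmem119. With the meningeal fibroblast list it was 0.98 for Mrc1, 0.95 for Tmem119, 0.93 for Cd163 and 0.87 for Csf1r, and 0.26 for Cx3cr1 and -0.86 for Sall1. With the bone marrow neutrophil list it was 0.83 for Mrc1, 0.83 for Tmem119 and 0.82 for Cd163, and 0.29 for Gpr34 and -0.01 for Cx3cr1. For the osteoblast and osteocyte list the values were 0.93 for Mrc1, 0.86 for Tmem119, 0.86 for Cd163 and 0.77 for Csf1r. They were 0.13 for Cx3cr1 and -0.89 for Sall1. Without 5xFAD-21 and WT-22 the neutrophil values were 0.36, 0.28 and 0.31 for Mrc1, Tmem119 and Cd163, and the meningeal values were 0.93, 0.82 and 0.75, with 0.59 for Csf1r. The osteoblast values were then 0.81, 0.52 and 0.55 for Mrc1, Tmem119 and Cd163, with 0.37 for Csf1r. The values with other microglia genes were then 0.88, 0.94 and 0.87 for Mrc1, Tmem119 and Cd163, with 0.86 for Csf1r. With the pinealocyte list Sall1 was at 0.65, and the other 8 members were at -0.63 to -0.01.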

How the data were processed

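Total RNA was depleted of ribosomal RNA, made into stranded paired-end libraries and, per the labels and the methods, trimmed with Trimmomatic, aligned to GRCm38.p6 (mm10) with STAR and quantified by the authors with Cuffnorm on GENCODE M17. The deposited values are FPKM per gene. Tool versions, the Cuffnorm scaling and the strand setting are not given in the sources used here. Members and lists were chosen with earlier results of these data known. Values were compared as log2(FPKM + 0.1) with limma 3.58.1 (trend) in R 4.3.3, over the 13094 protein-coding genes with a mean of at least 1 FPKM, with Benjamini-Hochberg adjustment and a threshold of 0.05, and other values with Python 3.11.15. A fold change on this scale understates the change of low genes. The pools are separate samples of 5 to 7 mice. Named were all 9 members, of each list up to 3 of the most abundant genes and those with an unadjusted p under 0.05, the 3 genes most correlated with each member, and Tph1. Il34, Csf1, Cx3cl1, Spi1, Xist, Ddx3y and genes that overlap a member were added after their values were seen. Coordinates are from GENCODE M21 on the same build, which holds 53616 of the 53710 gene IDs. Alternatives were other pseudocounts, filters, scalings, a term for unread bases, the replicate block and leaving out libraries. The replicate number counts the libraries from 1 to 4 within each group and is not the number in their labels. The statistical code was tested on simulated data. A further element of the 5xFAD genotype is not reported here.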

Additional observations from a re-analysis of the deposited data

Results flagged for a closer look

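Of 128 sets of 4 libraries (a gene in a group) examined for 1 library far from the other 3, 6 were marked, and chance marks about 1 in 20. None of the 18 sets of the 9 members was among them. Ly86, a macrophage gene, was at 6.77 FPKM in 5xFAD-1, above the other 5xFAD libraries. Vcan was at 7.75 FPKM in WT-11, above the other WT libraries. The platelet gene Gp9 was at 4.42 FPKM and the pinealocyte gene Gngt1 at 21.5 FPKM in 5xFAD-21, each the highest of the 5xFAD libraries. The brown fat genes Ucp1, at 516 FPKM, and Cidea, at 106 FPKM, were highest in 5xFAD-2.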

How the results depend on the processing

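No member was called under any of the 22 alternatives, in which the smallest adjusted p was 0.174 (Cd163, limma, leaving out 5xFAD-21 and WT-22 together). Of 204 member values, 203 kept their sign and 1 reversed: P2ry12 stood at 0.0911 without WT-11, with a range of -0.404 to 0.0911 when 1 library was left out. Part of the 204 could not reverse. The exact permutation test, the fit without a trend, the replicate block and the changes of filter leave a member's fold change as it was. The median log2 fold change of the members ranged from -0.71 to -0.14, as it did when 1 library was left out. A minimum mean of 5 FPKM kept 6 members. Aif1 had an unadjusted p under 0.05 in 17 of 23 alternatives and missed it in 6, among them the exact permutation test (p = 0.114), with log2 fold changes of -0.99 to -0.53. The number of genes called, 5 as reported, was 8 with no filter and 8 over all annotated rows, 0 when a value above 0 was required in every library, and 4 to 92 when 1 library was left out, with the 92 without WT-22. It was 29 without 5xFAD-21 and WT-22 and 40 without 5xFAD-2 and WT-22, both chosen after seeing the data, and the cause was not tested. With the replicate number as a block, 4 genes and 0 members were called and the members' median was -0.46. Same-numbered libraries correlated at -0.34 to 0.24, so the numbers do not pair the samples. Counting error was largest for Aif1 and Gpr34, which had the fewest fragments, and pools of unknown cell makeup limit all values.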

Other observations

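Other blood and fat lineages gave few measurable genes. Dendritic cell markers were tested for 4 of 6 genes, all below 0 (median log2 fold change -0.26), led by Zbtb46, a transcription factor of classical dendritic cells, at 3.89 ± 1.07 FPKM in 5xFAD and 4.51 FPKM on average in WT. Platelet markers were tested for 3 of 5 genes (median -0.18), and differed from the members in that 5xFAD-21 lay high among the 5xFAD libraries, with Ppbp at 21.97 FPKM there. Of 5 lymphocyte markers only Cd4 was tested, at 0.932 ± 0.166 FPKM in 5xFAD and 1.31 FPKM on average in WT. Brown fat markers lay above 0 in 5 of 5 genes (median 1.46), with a summed level of 13.4 to 996 FPKM in 5xFAD and 12.2 to 29.1 FPKM in WT, the highest in 5xFAD-2, where the members lay inside the range of the other libraries except for Cx3cr1, which was lowest there at 4.18 FPKM.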
